A study of Homo sapiens with 8 samples.

Results

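The zinc finger genes described here are the protein-coding genes of human chromosome 19 whose symbol is ZNF followed by digits and, in some, a final letter. The rule used the gene names and positions of the GENCODE annotation on GRCh37 (the hg19 build) and no measured value. It found 246 of the 20090 protein-coding genes that were scored genome-wide, and left 1234 other protein-coding genes on chromosome 19 to set them against. HCT8 cells, a line from a human ileocecal colorectal adenocarcinoma, were kept for 5 h with membrane vesicles (MVs) of V. cholerae strain C6706, with MVs of the non-pathogenic E. coli strain MC1061, or without vesicles (mock). By the study's methods the control cells received the vesicle buffer, whereas the labels of both mock libraries call the cells non treated. Chromatin from each of the 3 treatments was taken for ChIP sequencing of H3K4me3, a histone mark of active promoters, and for FAIRE sequencing, which recovers DNA free of nucleosomes. There was 1 library for each treatment and assay, so no difference between treatments has a replicate check. The intervals of single genes and of shares given below cover counting error alone. Those of medians come from ranked genes and describe the spread among genes, which are not replicates.

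Most of these genes encode proteins with a row of C2H2 zinc fingers, each finger touching a few bases of DNA, and many carry a KRAB box in front of the fingers. The KRAB box binds TRIM28, which brings the histone methyltransferase SETDB1 and heterochromatin proteins, so that the targets, often transposable elements, are packed into H3K9me3 chromatin. Chromosome 19 holds the largest share of the human family, in clusters that grew by tandem duplication, and its members differ widely in when and where they are transcribed.

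A KRAB box pattern was found in 194 of the 246 members when their coding sequences were translated, and the members held a median of 12 zinc finger patterns, between 1 and 36. The pattern is strict, so some of the 52 members without it may carry a diverged box. The members sat in 9 clusters of at least 5 genes, counted where neighbours lay within 1 Mb of each other, and 11 members stood outside them. The window of 1000 bp on each side of the start sites had a median of 49.3% G+C in members and 56.8% in the other chromosome 19 genes, with medians of 2.98% and 3.47% CG dinucleotides.

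The values are normalized tag counts, the tags of a called peak per 10000000 tags of its library, summed over the peaks within 1000 bp of any annotated start site of a gene. The libraries differed in depth and in how far tags gathered in peaks. For H3K4me3 they held 13011839 tags with V. cholerae MVs, 10528314 tags with E. coli MVs and 3463875 tags in mock, of which 56.1% with V. cholerae MVs, 53.9% with E. coli MVs and 38.6% in mock lay in called peaks. For FAIRE they held 12077180 tags with V. cholerae MVs, 7888670 tags with E. coli MVs and 14474665 tags in mock, of which 13.9% with V. cholerae MVs, 37.3% with E. coli MVs and 7.12% in mock lay in peaks, and the E. coli library stood apart. The mock H3K4me3 library was the shallowest, so the smallest member value in it was 17.3 (6 tags), against 8.45 (11 tags) with V. cholerae MVs and 9.50 (10 tags) with E. coli MVs. Of 10 colon epithelium markers 8 had an H3K4me3 peak in all 3 libraries, CDX2 and EPCAM among them, and KRT20 and CDX1 did not. Of 6 blood markers CD14 alone had one, and none of 9 fibroblast, endothelial, neuronal and liver markers had one in mock (3 of the 9 had values between 7.69 and 17.1 with MVs). How far FAIRE separated the lists varied by library. In mock a FAIRE peak stood at 7 of 10 colon, 1 of 6 blood, 4 of 5 fibroblast and endothelial, and 1 of 4 neuronal and liver markers. With V. cholerae MVs it was 10 of 10 colon, 1 of 6 blood, 2 of 5 fibroblast and endothelial, and 1 of 4 neuronal and liver markers. With E. coli MVs it was 9 of 10, 4 of 6, 3 of 5 and 3 of 4 in the same order.

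The first question was which of these genes carried the mark at all. H3K4me3 peaks stood at the start sites of 160 members (65.0%, exact binomial 95% interval 58.7 to 71.0) with V. cholerae MVs, 161 (65.4%, 59.1 to 71.4) with E. coli MVs and 156 (63.4%, 57.1 to 69.4) in mock. The shares over all protein-coding genes were 65.2% with V. cholerae MVs, 64.3% with E. coli MVs and 60.4% in mock, so the members lay near this background in each library. They were marked less often than the 262 ZNF genes of other chromosomes. Of those, 84.7% (79.8 to 88.9) had a peak with V. cholerae MVs, 84.0% (79.0 to 88.2) with E. coli MVs and 82.8% (77.7 to 87.2) in mock. Among the other chromosome 19 genes 804 of 1234 with V. cholerae MVs, 787 of 1234 with E. coli MVs and 722 of 1234 in mock had a peak. The same 156 members were marked in all 3 libraries, 85 had no peak in any, 4 had one with both MVs and not in mock, and ZNF222 had one with E. coli MVs alone (14.2, 15 tags). No member with a mock peak lacked one with either MV.

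The level of the mark varied widely among marked members. Normalized tag counts ran between 8.45 and 1680 with V. cholerae MVs (median 348.1), between 9.50 and 1381 with E. coli MVs (median 313.4) and between 17.3 and 1114.4 in mock (median 233.8). The other chromosome 19 genes had medians of 422.3 with V. cholerae MVs, 366.7 with E. coli MVs and 245.4 in mock. Peaks at members were narrower, with median summed widths of 2217 bp with V. cholerae MVs, 2156 bp with E. coli MVs and 1868 bp in mock, against 2683 bp with V. cholerae MVs, 2538 bp with E. coli MVs and 2081 bp in mock at the other genes. In the plot of levels along the chromosome the members without a peak are the same in each library, but for 5 that had one with MVs alone. Whether a value differs because more cells carried the mark or because each cell carried more of it cannot be told apart in these bulk libraries.

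**Figure D1:**
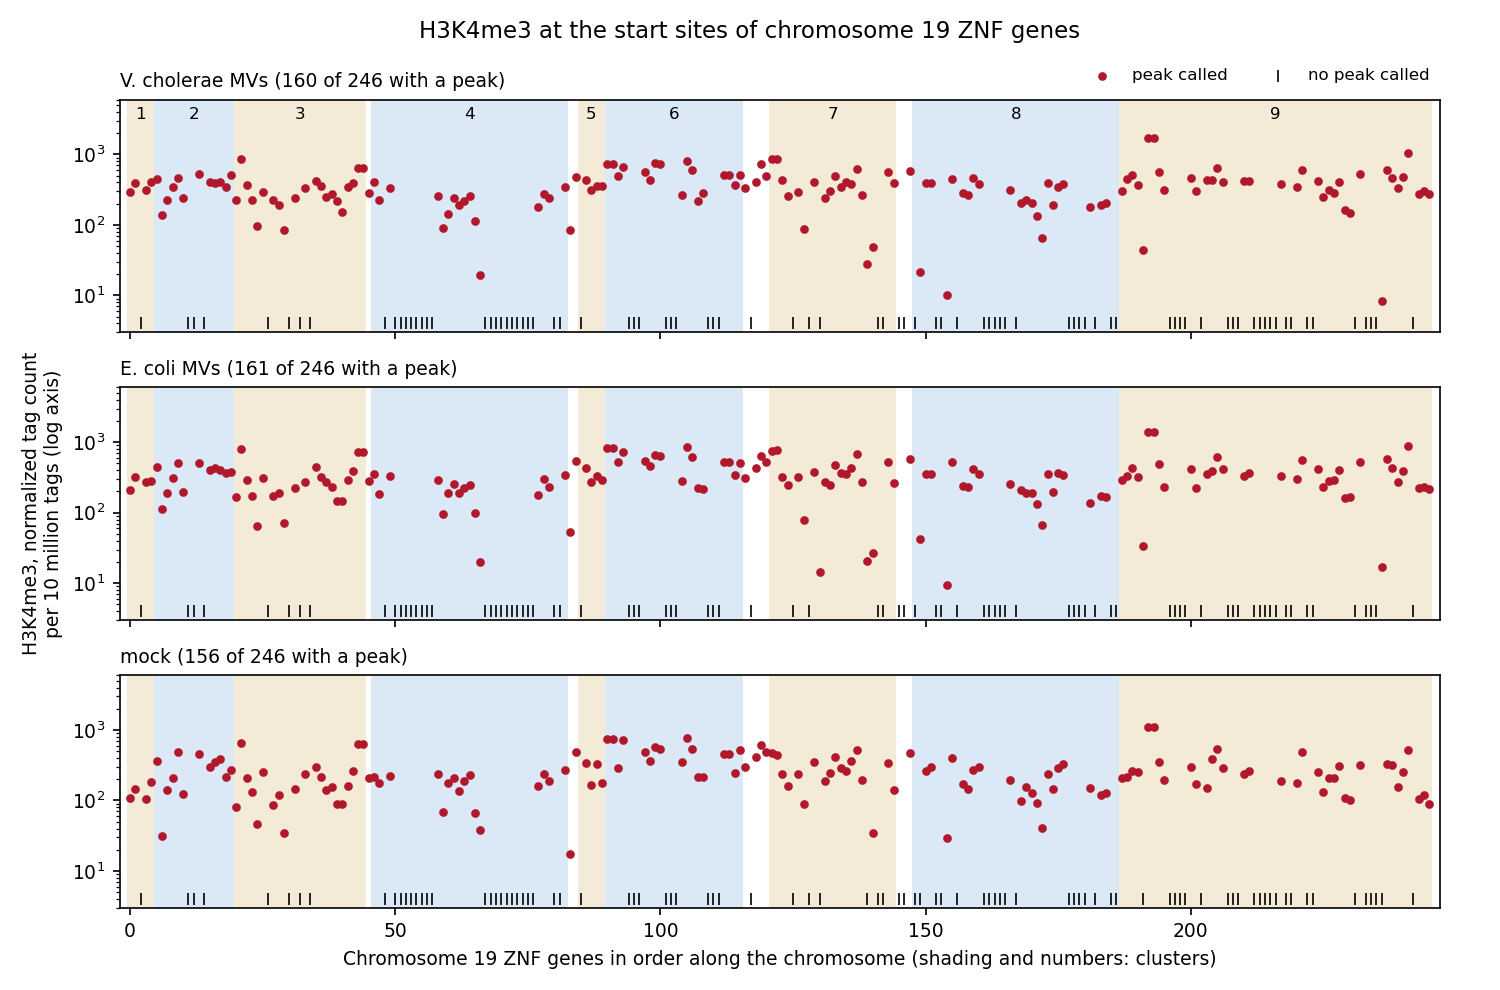
H3K4me3 at all 246 members in order along chromosome 19, by library (V. cholerae MVs, E. coli MVs, mock). Dots are normalized tag counts per 10000000 tags on a log axis, ticks at the bottom are members with no called peak, and shading marks the 9 clusters. Marked members lie between 8.45 and 1680, and the long rows of ticks in cluster 4 stand at the same members in all 3 libraries.

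The 5 members with the highest mock level belonged to 3 stretches of chromatin. ZNF581 and ZNF580, neighbours in cluster 9, share their called peaks and so have the same value. It was 1680 with V. cholerae MVs, 1381 with E. coli MVs and 1114.4 in mock. Summed peak widths were 8192 bp with V. cholerae MVs, 7792 bp with E. coli MVs and 6643 bp in mock. Their log2 ratio of V. cholerae MVs over mock was 0.592, and 0.190 from the 5′ end alone. The value is thus a sum of separate peaks in at least 1 library. ZNF585B had 810.8 with V. cholerae MVs, 855.8 with E. coli MVs and 779.4 in mock. ZNF146, which consists almost wholly of zinc fingers and has no KRAB box, and ZNF565, a KRAB gene that starts beside it on the other strand, shared a peak of 723.2 with V. cholerae MVs, 814.0 with E. coli MVs and 741.9 in mock. At the other end ZNF536, a repressor of neuronal differentiation, had 83.8 with V. cholerae MVs, 53.2 with E. coli MVs and 17.3 in mock (6 mock tags), ZNF358 had 138.3 with V. cholerae MVs, 113.0 with E. coli MVs and 31.8 in mock (11 mock tags), and ZNF614 had 9.99 with V. cholerae MVs, 9.50 with E. coli MVs and 28.9 in mock (10 mock tags). Of the 156 members with a mock peak, 39 shared a peak with another protein-coding gene, 14 of them with another member, and for those the mark cannot be assigned to 1 of the genes.

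Members with a known role were spread over the whole range. ZNF91, which represses SVA retrotransposons, was marked in each library (272.8 with V. cholerae MVs, 302.0 with E. coli MVs and 236.7 in mock), whereas ZNF93, which represses LINE-1 elements, had no H3K4me3 peak and no FAIRE peak in any. ZNF160, reported to repress TLR4 in intestinal epithelial cells, had 385.8 with V. cholerae MVs, 338.1 with E. coli MVs and 326.2 in mock, a difference to mock of 0.24 (counting interval -0.06 to 0.55) and 0.05 (-0.26 to 0.37) on the log2 scale. ZNF224, a KRAB repressor of aldolase A, had 497.2 with V. cholerae MVs, 468.3 with E. coli MVs and 418.6 in mock, and ZNF473, a factor in the 3′ processing of histone mRNAs, had 576.4 with V. cholerae MVs, 577.5 with E. coli MVs and 467.7 in mock. ZNF649 had 386.6 with V. cholerae MVs, 349.5 with E. coli MVs and 262.7 in mock, ZNF426 had 411.9 with V. cholerae MVs, 406.5 with E. coli MVs and 294.5 in mock, and ZNF557 had 448.8 with V. cholerae MVs, 451.2 with E. coli MVs and 366.6 in mock. Of these 8 members ZNF93 alone went unmarked.

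Of the genes reported as silenced by DNA methylation in tumours, ZNF382, ZNF132, ZNF154 and ZNF471 had no H3K4me3 peak in any library, and neither had ZNF331, which is imprinted. ZNF274, whose protein brings SETDB1 to the 3′ ends of other zinc finger genes, had a small peak with V. cholerae MVs (8.45, 11 tags) and with E. coli MVs (17.1, 18 tags) and none in mock, and both values lie under the smallest member value that mock shows. The other members with a peak with both MVs and none in mock were ZNF784 (43.8 with V. cholerae MVs and 33.2 with E. coli MVs), ZNF577 (21.5 with V. cholerae MVs and 41.7 with E. coli MVs) and ZNF233 (27.7 with V. cholerae MVs and 20.9 with E. coli MVs). A smaller share of members than of their neighbours gained a peak. Genes of 1 library pair are not replicates and can share a peak, so the difference between these shares was not tested. Of 90 members with no mock peak, 4 (4.44%, 1.22 to 10.99) had one with V. cholerae MVs and 5 (5.56%, 1.83 to 12.5) with E. coli MVs, against 82 (16.02%, 12.9 to 19.5) with V. cholerae MVs and 66 (12.9%, 10.1 to 16.1) with E. coli MVs of 512 other chromosome 19 genes. Over all 7949 genes with no mock peak the shares were 12.6% with V. cholerae MVs and 10.3% with E. coli MVs, and over 45 ZNF genes of other chromosomes 11.1% (3.71 to 24.1) and 6.67% (1.40 to 18.3).

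Marked and unmarked members had similar numbers of CG dinucleotides just before the start. The 250 bases before the start are printed for 4 members with their CG dinucleotides in capitals, since CG-rich promoters usually carry H3K4me3. The letters are those of the RefSeq promoter table (GRCh38.p14), found again on GRCh37, the build of the coordinates. ZNF784 gained a peak with both MVs (minus strand, chr19:56135933-56136182, 18 CG), ZNF91 was marked in each library (minus strand, chr19:23578274-23578523, 7 CG), and ZNF606 (minus strand, chr19:58514189-58514438, 27 CG) and ZNF132 (minus strand, chr19:58951521-58951770, 19 CG) had no H3K4me3 peak.
ZNF784: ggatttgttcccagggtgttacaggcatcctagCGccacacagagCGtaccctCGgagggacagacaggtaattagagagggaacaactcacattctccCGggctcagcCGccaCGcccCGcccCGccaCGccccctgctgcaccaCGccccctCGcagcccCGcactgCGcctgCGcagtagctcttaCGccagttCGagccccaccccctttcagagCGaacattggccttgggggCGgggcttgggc
ZNF91: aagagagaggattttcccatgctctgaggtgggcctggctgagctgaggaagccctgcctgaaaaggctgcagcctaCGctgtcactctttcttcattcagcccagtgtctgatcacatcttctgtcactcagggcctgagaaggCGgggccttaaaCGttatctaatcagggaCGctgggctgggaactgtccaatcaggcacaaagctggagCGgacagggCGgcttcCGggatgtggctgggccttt
ZNF606: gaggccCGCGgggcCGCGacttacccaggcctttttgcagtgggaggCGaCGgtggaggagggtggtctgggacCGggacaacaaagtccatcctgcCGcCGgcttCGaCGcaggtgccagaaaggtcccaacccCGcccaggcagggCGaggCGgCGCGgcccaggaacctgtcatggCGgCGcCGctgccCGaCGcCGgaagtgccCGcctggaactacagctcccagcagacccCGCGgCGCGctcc
ZNF132: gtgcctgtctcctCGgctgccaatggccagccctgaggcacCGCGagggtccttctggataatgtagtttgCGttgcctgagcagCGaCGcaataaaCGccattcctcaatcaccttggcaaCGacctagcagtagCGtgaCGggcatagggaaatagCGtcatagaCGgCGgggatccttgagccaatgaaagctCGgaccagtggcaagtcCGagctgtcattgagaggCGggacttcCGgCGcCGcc
ZNF606 and ZNF132 hold more CG than ZNF91 and carry no mark, while a FAIRE peak lay over both of them with E. coli MVs. Over the members matched to the table, 250-base promoters held a median of 16 CG in the 139 marked in all 3 libraries and 15 in the 73 marked in none.

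CG content separated marked from unmarked genes less sharply among members than among their neighbours. In the lowest of 4 equal bins of CG content on chromosome 19, 49 of 83 members (59.0%) and 42 of 287 other genes (14.6%) had a mock peak. In the highest bin it was 32 of 40 members (80.0%) and 265 of 330 other genes (80.3%). The median CG content was 3.11% at members marked in all 3 libraries and 2.86% at members marked in none, against 3.96% and 2.37% at the other genes. Of the 85 unmarked members 8 lay in the top 25% of CG content on the chromosome, with ZNF135 (6.09%), ZNF606 (5.88%) and ZNF570 (5.19%) at the head, and ZNF154 (4.66%) among them.

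**Figure D2:**
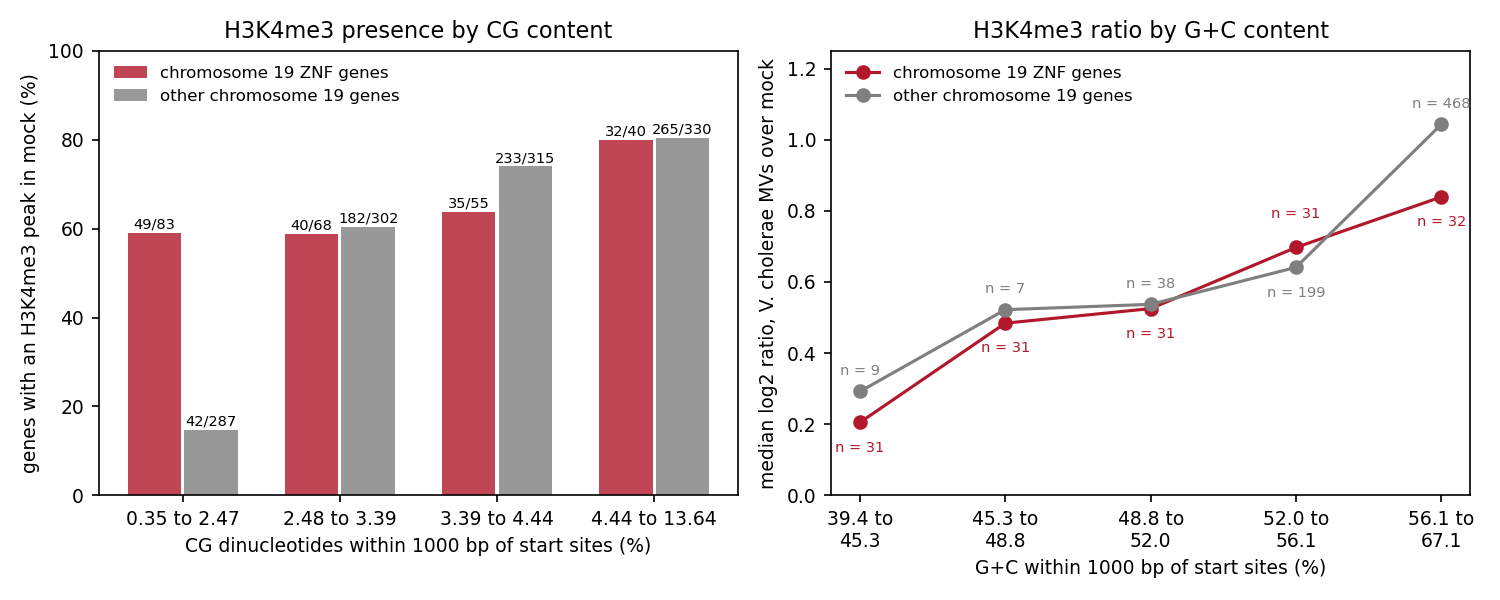
Left, percentage of genes with an H3K4me3 peak in mock by bin of CG dinucleotide content around the start sites, with counts over the bars. Right, median log2 ratio of H3K4me3 with V. cholerae MVs over mock by bin of G+C content, for genes with a peak in all 3 libraries. In the lowest CG bin 59.0% of members and 14.6% of other chromosome 19 genes are marked, and the medians of members and other genes are 0.53 and 0.54 in the middle bin of G+C and 0.84 and 1.04 in the highest.

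There were 4 runs of at least 5 unmarked members, and the other unmarked members lay singly or in shorter runs. In cluster 4 (chr19:19779605-24312770), the 37 members of which 35 hold the KRAB pattern, 16 members (43.2%) were marked, and the same number in each library. The 8 members between ZNF93 and ZNF85 (chr19:20011722-21133503) had no H3K4me3 peak, the next 9 between ZNF430 and ZNF43 (chr19:21203440-22034927) each had one in all 3 libraries, and the 10 between ZNF208 and ZNF730 (chr19:22115760-23330023) had none. The marked run had medians of 189.1 with V. cholerae MVs, 191.9 with E. coli MVs and 179.0 in mock. No FAIRE peak was called in any library at the 10 members of the second unmarked run, and one was called with E. coli MVs alone at 4 of the 8 members of the first. A median of 91.3% of the 50-base stretches around the start sites of the second unmarked run occurred once in the genome, against 92.6% in the marked run. Over all members the medians were 95.3% for the unmarked and 95.4% for the marked.

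The other clusters were marked more often. With V. cholerae MVs a peak stood at 4 of 5 members of cluster 1, 12 of 15 of cluster 2, 21 of 25 of cluster 3, 4 of 5 of cluster 5, 17 of 26 of cluster 6, 19 of 24 of cluster 7, 22 of 39 of cluster 8 and 37 of 59 of cluster 9. Runs of 5 unmarked members also lay between ZNF610 and ZNF578 in cluster 8 and between ZNF772 and ZNF550 in cluster 9. The longest runs of members marked in at least 1 library held 13 members (ZNF136 to ZNF14), 12 (ZNF230 to ZNF112) and 11 (ZNF426 to ZNF440). The nearest called H3K4me3 peak lay a median of 34.001 kb with V. cholerae MVs, 33.1 kb with E. coli MVs and 40.6 kb in mock away from the start sites of the 85 unmarked members, and within 10 kb for 9 of them with V. cholerae MVs, 13 of them with E. coli MVs and 7 of them in mock.

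A short sequence that the choice of genes did not use occurred in many promoters of members, though not in most. CCGGAAG, the core bound by ETS factors such as GABPA, occurred on either strand in the 300-base promoters of 98 of 216 matched members (45.4%), in 13.0% of 951 other chromosome 19 promoters and in 14.4% of all 15288 promoters of the table. Of the 110 matches 99 lay within 100 bp of the start, at a median of 18 bp before it. CCAAT occurred in 53.7% of members and 36.6% of all promoters, GGGCGG in 67.6% and 59.2%, ATGGCGG in 8.80% and 7.77%, CACGTG in 4.17% and 8.89%, and TATAAA in 1.85% and 9.60%. The core did not sort marked from unmarked members. It was present in 58 of 139 (41.7%) marked in all 3 libraries and in 38 of 73 (52.1%) marked in none. Cluster 4 shows this at the level of bases, with the core in capitals and 10 bases on each side. ZNF431, ZNF91 and ZNF493 were marked, and ZNF208, ZNF257 and ZNF492 were not.
ZNF431: ccgccacatcCCGGAAGccgtcctgtc
ZNF91: cagccacatcCCGGAAGccgccctgtc
ZNF493: cagccacatcCCGGAAGccgtcctcgc
ZNF208: cgaccacatcCCGGAAGccgacctgtc
ZNF257: cccgccaaacCCGGAAGccaccctgtc
ZNF492: ccgccacatcCCGGAAGccgccctttc
The sites lie on GRCh37 at chr19:21324809-21324835, chr19:23578281-23578307, chr19:21579904-21579930, chr19:22193748-22193774, chr19:22235258-22235284 and chr19:22817098-22817124, each 18 to 24 bp before its start. In this cluster 10 of 21 members with the core and 4 of 8 without it carried H3K4me3 in at least 1 library.

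The second question was how far the mark changed with vesicles. Of the 156 members marked in all 3 libraries, 144 (92.3%) had a higher value with V. cholerae MVs than in mock and 147 (94.2%) with E. coli MVs, beside 91.2% and 96.0% of all genes, with median log2 ratios of 0.54 (interval of the median 0.44 to 0.66) and 0.44 (0.37 to 0.50). At least 1.5-fold higher were 71 members (45.5%) with V. cholerae MVs and 49 (31.4%) with E. coli MVs, and these shares stand beside 53.5% and 42.6% of all 12070 genes marked in all 3 libraries. At least 1.5-fold lower were ZNF614 and ZNF43 with either MV, beside 0.572% and 0.356% of all genes. Both rest on few tags, ZNF43 on 25 with V. cholerae MVs, 21 with E. coli MVs and 13 in mock (normalized, 19.2 with V. cholerae MVs, 19.9 with E. coli MVs and 37.5 in mock) and ZNF614 on 13 with V. cholerae MVs, 10 with E. coli MVs and 10 in mock. The counting interval of the ratio lay above 0 for 102 members (65.4%) with V. cholerae MVs and for 93 (59.6%) with E. coli MVs, beside 75.7% and 74.8% of all genes.

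These directions rest on scaling to all tags of a library. Scaling to the tags in peaks lowers each ratio by 0.54 with V. cholerae MVs and by 0.48 with E. coli MVs, which leaves member medians of 0.00 and -0.04. With V. cholerae MVs 15 members (9.62%) were then at least 1.5-fold higher and 7 (4.49%) that much lower, beside 21.7% and 7.10% of all genes. With E. coli MVs it was 8 (5.13%) higher and 6 (3.85%) lower, beside 12.2% and 1.92%. The place of members among genes does not change with it, since the shift is the same for every gene.

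Between the vesicles the members differed little. With V. cholerae MVs over E. coli MVs the median log2 ratio was 0.10 (0.05 to 0.15), and 107 of 156 members (68.6%) were higher, beside 68.5% of all genes. ZNF112 (49.2 with V. cholerae MVs, 26.6 with E. coli MVs and 34.6 in mock, log2 0.89, on 64 tags with V. cholerae MVs, 28 tags with E. coli MVs and 12 tags in mock) and ZNF536 (0.66, 6 mock tags) were at least 1.5-fold higher and none of the 156 was that much lower, beside 4.28% and 0.613% of all genes. ZNF577 and ZNF274, with peaks with both MVs and none in mock, lie outside the 156 and had log2 ratios of -0.95 (28 tags with V. cholerae MVs and 44 with E. coli MVs) and -1.02 (11 tags with V. cholerae MVs and 18 with E. coli MVs). Among the 148 members with at least 20 mock tags the highest 2 and lowest 2 were as follows. ZNF799, of whose start-site windows 76.5% of 50-base stretches occur once in the genome, had 218.3 with V. cholerae MVs, 147.2 with E. coli MVs and 89.5 in mock, and ZNF77 had 405.8 with V. cholerae MVs, 279.2 with E. coli MVs and 184.8 in mock, with log2 ratios between the vesicles of 0.57 (0.28 to 0.86) and 0.54 (0.33 to 0.75). ZNF431 had 142.9 with V. cholerae MVs, 187.1 with E. coli MVs and 179.0 in mock and was lowest by this ratio (-0.39, -0.69 to -0.09), followed by ZNF432 at 450.4 with V. cholerae MVs, 528.1 with E. coli MVs and 404.2 in mock (-0.23, -0.40 to -0.06).

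Among those 148 members the 3 with the highest ratio over mock were the same with both vesicles, which share the mock library. ZNF446 had 274.4 with V. cholerae MVs, 217.5 with E. coli MVs and 89.5 in mock, log2 ratios of 1.62 (1.08 to 2.19) and 1.28 (0.74 to 1.87). ZNF57 had 312.0 with V. cholerae MVs, 275.4 with E. coli MVs and 103.9 in mock, and ZNF264 had 435.8 with V. cholerae MVs, 354.3 with E. coli MVs and 150.1 in mock. ZNF585A was the lowest of the 148 with both, at 261.3 with V. cholerae MVs, 281.1 with E. coli MVs and 346.4 in mock, with log2 ratios of -0.41 (-0.71 to -0.09) and -0.30 (-0.61 to 0.02). Next in order came ZNF431 (-0.33) and ZNF260 (657.9 with V. cholerae MVs, 714.3 with E. coli MVs and 716.0 in mock) for the ratio of V. cholerae MVs. For that of E. coli MVs they were ZNF221 (86.1 with V. cholerae MVs, 77.9 with E. coli MVs and 89.5 in mock) and ZNF845 (180.6 with V. cholerae MVs, 135.8 with E. coli MVs and 150.1 in mock). The intervals of these 4 against mock reached across 0.

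The members at the ends of this order differ in base composition, so the promoters of the highest 2 and the lowest 2 with V. cholerae MVs are shown as above, CG in capitals: ZNF446 (plus strand, chr19:58987469-58987718, 29 CG), ZNF57 (plus strand, chr19:2900676-2900925, 23 CG), ZNF585A (minus strand, chr19:37663598-37663847, 16 CG) and ZNF431 (plus strand, chr19:21324593-21324842, 11 CG).
ZNF446: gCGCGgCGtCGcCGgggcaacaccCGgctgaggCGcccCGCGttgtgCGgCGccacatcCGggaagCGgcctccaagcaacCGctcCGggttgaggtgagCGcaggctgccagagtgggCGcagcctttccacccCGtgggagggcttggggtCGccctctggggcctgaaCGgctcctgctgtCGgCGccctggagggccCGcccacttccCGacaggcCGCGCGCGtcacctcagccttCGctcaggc
ZNF57: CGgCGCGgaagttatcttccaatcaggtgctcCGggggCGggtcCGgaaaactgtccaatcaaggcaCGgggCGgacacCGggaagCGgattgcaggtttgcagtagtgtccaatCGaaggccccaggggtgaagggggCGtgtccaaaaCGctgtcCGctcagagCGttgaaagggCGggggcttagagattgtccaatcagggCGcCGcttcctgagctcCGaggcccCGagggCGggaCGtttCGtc
ZNF585A: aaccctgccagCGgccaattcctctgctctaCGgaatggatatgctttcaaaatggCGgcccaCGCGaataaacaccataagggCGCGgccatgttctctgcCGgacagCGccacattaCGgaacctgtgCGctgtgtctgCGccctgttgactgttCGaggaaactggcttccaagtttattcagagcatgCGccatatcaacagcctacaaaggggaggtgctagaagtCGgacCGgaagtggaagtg
ZNF431: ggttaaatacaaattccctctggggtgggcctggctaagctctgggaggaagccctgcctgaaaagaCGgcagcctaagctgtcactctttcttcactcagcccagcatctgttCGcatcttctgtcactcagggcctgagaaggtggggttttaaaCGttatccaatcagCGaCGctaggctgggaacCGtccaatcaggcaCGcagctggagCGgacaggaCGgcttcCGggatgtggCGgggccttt
The windows of 1000 bp around the start sites held 57.0% and 51.4% G+C at ZNF446 and ZNF57, and 42.7% and 39.4% at ZNF585A and ZNF431.

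Set against their neighbours, and before base composition was taken into account, the members had lower ratios. The other chromosome 19 genes had median log2 ratios of 0.88 (n = 721) with V. cholerae MVs and 0.64 with E. coli MVs over mock, and 0.23 between the vesicles, so the members differed by -0.34 (V. cholerae MVs over mock), -0.20 (E. coli MVs over mock) and -0.14 (between the vesicles). Of these genes 540 were at least 1.5-fold higher with V. cholerae MVs, 413 with E. coli MVs, and 52 in the comparison between the vesicles. ZNF genes of other chromosomes, chosen by the same naming rule, had medians of 0.59 (V. cholerae MVs over mock), 0.51 (E. coli MVs over mock) and 0.11 (between the vesicles) (n = 217), and all genes 0.64 (V. cholerae MVs over mock), 0.52 (E. coli MVs over mock) and 0.11 (between the vesicles). Members with the KRAB pattern had 0.50 and 0.42 over mock (n = 118) and those without it 0.69 and 0.46 (n = 38), with a median G+C of 49.7% with the pattern and 56.0% without it.

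Base composition moved with these ratios. Over the 156 members, which share libraries and depth, the ratio of V. cholerae MVs over mock rose with G+C content (Pearson r = 0.55, Spearman rho = 0.57) and fell with the mock level (r = -0.41, rho = -0.54), the mock value being a part of the ratio itself. In 5 bins of rising G+C the members had medians of 0.20, 0.48, 0.53, 0.70 and 0.84, and the other chromosome 19 genes 0.29, 0.52, 0.54, 0.64 and 1.04. Weighted to the G+C of the members, the other genes left a difference of -0.02 with V. cholerae MVs over mock, -0.05 with E. coli MVs over mock and -0.02 between the vesicles. The 2 lowest bins hold only 9 and 7 other genes, and without them the differences were -0.04 (V. cholerae MVs over mock), -0.04 (E. coli MVs over mock) and 0.01 (between the vesicles). Per 1000 bp of called peak the difference was -0.14 with V. cholerae MVs and -0.11 with E. coli MVs, and median peak widths were 2237 bp with V. cholerae MVs, 2176 bp with E. coli MVs and 1868 bp in mock at members, and 2851 bp with V. cholerae MVs, 2637 bp with E. coli MVs and 2083 bp in mock at the other genes. The part of base composition or peak width in the difference was not tested beyond these values.

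Within the clusters the median ratio of V. cholerae MVs over mock was highest in cluster 1 (1.45, 4 members marked) and lowest in cluster 6 (0.14, 17 members) and cluster 4 (0.27, 16 members). Cluster 3 had 0.78, cluster 9 0.70, cluster 5 0.63, cluster 2 0.57, cluster 8 0.56 and cluster 7 0.39. Other protein-coding genes inside the clusters were all those outside the naming rule, so zinc finger genes with other kinds of name are among them. They had medians of 1.11 in cluster 2 (30 genes), 0.82 in cluster 7 (20 genes), 0.66 in cluster 3 (9 genes) and 0.58 in cluster 9 (15 genes), with 0.69 in cluster 8 (5 genes) and 0.43 in cluster 6 (4 genes). By this ratio they lay above the members in clusters 2, 6, 7 and 8, and below them in clusters 3 and 9.

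**Figure D3:**
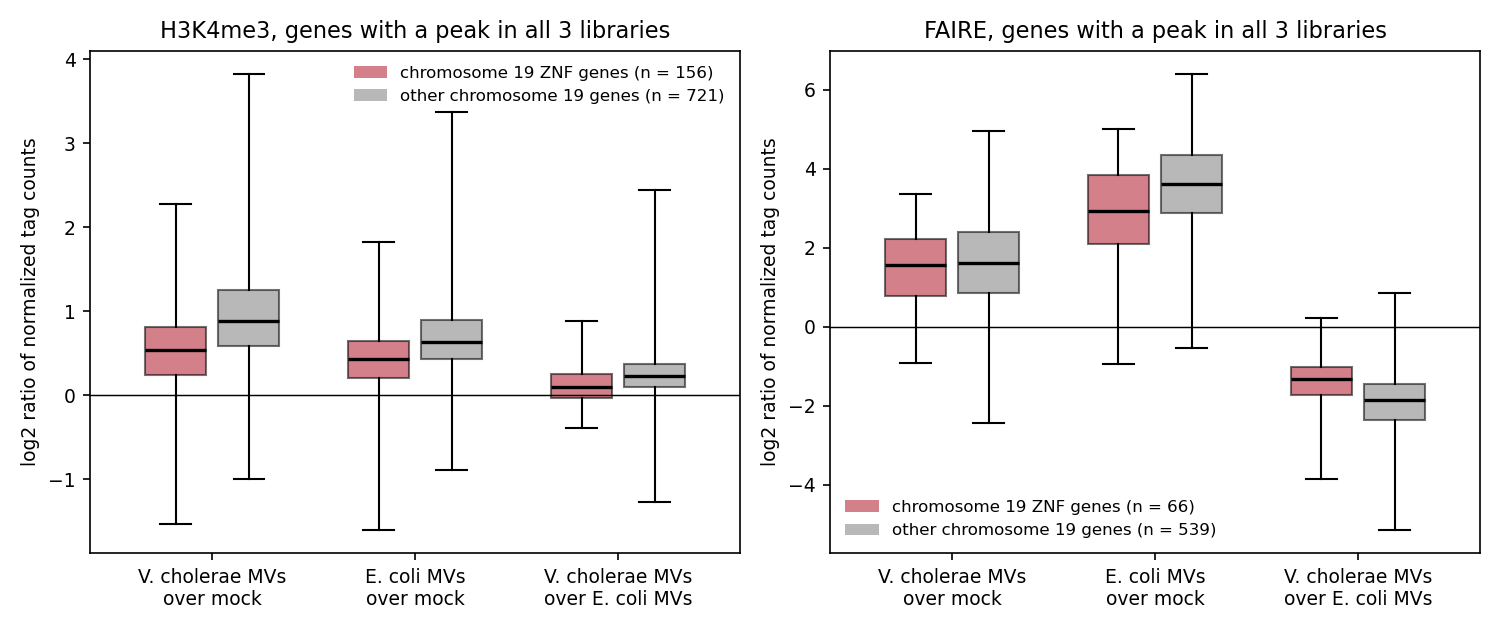
Log2 ratios of H3K4me3 (left) and FAIRE (right) for members and other chromosome 19 genes with a peak in all 3 libraries of the assay. Boxes span the quartiles, the line in each is the median and the whiskers reach the lowest and highest gene. For H3K4me3 the member medians of 0.54 (V. cholerae MVs over mock), 0.44 (E. coli MVs over mock) and 0.10 (between the vesicles) lie below those of the other genes of 0.88 (V. cholerae MVs over mock), 0.64 (E. coli MVs over mock) and 0.23 (between the vesicles).

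The third question was whether chromatin at these start sites was open. The FAIRE libraries differed more than those of H3K4me3 in the share of tags in peaks, with E. coli MVs standing apart, and the part of this in the counts and ratios was not tested. A FAIRE peak stood at 156 members (63.4%) with V. cholerae MVs, 204 (82.9%) with E. coli MVs and 77 (31.3%) in mock, beside 62.4% with V. cholerae MVs, 77.8% with E. coli MVs and 41.7% in mock of all genes. The other chromosome 19 genes had one in 847 of 1234 with V. cholerae MVs, 1062 of 1234 with E. coli MVs and 620 of 1234 in mock. In mock a smaller share of members (31.3%) than of their neighbours (50.2%) thus had a FAIRE peak. Of ZNF genes of other chromosomes 43.1% had one in mock. A FAIRE peak in all 3 libraries was found at 66 members. Of these 52 were at least 1.5-fold higher with V. cholerae MVs than in mock and 2 lower, beside 76.0% and 4.51% of all 6957 such genes. With E. coli MVs 64 were higher and 1 lower, beside 98.2% and 0.230%. With V. cholerae MVs over E. coli MVs 0 were higher and 59 lower, beside 0.604% and 93.0%.

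The median log2 FAIRE ratios of members were 1.56 with V. cholerae MVs and 2.92 with E. coli MVs over mock and -1.32 between the vesicles, against 1.62 (V. cholerae MVs over mock), 3.61 (E. coli MVs over mock) and -1.86 (between the vesicles) at 539 other chromosome 19 genes. Scaling to tags in peaks shifts every gene by -0.97 (V. cholerae MVs over mock), -2.39 (E. coli MVs over mock) and 1.42 (between the vesicles), which leaves members at 0.59 (V. cholerae MVs over mock), 0.53 (E. coli MVs over mock) and 0.10 (between the vesicles). Then 33 of 66 members were at least 1.5-fold up and 9 (13.6%) down with V. cholerae MVs over mock, beside 44.6% and 19% of all genes. With E. coli MVs over mock 31 (47.0%) were up and 12 (18.2%) down, beside 56.5% and 11.5%. Between the vesicles, where the direction of the member median turned, 14 (21.2%) were up and 8 (12.1%) down, beside 12.6% and 33.4%. Weighted to the G+C of the members the differences to the other genes were 0.22 (V. cholerae MVs over mock), 0.14 (E. coli MVs over mock) and 0.08 (between the vesicles), against -0.07 (V. cholerae MVs over mock), -0.69 (E. coli MVs over mock) and 0.54 (between the vesicles) without weighting.

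FAIRE peaks were more frequent at members with the mark, as they were over all genes. With V. cholerae MVs 133 of 160 members with H3K4me3 (83.1%) and 23 of 86 without it (26.7%) had a FAIRE peak, with E. coli MVs 160 of 161 (99.4%) and 44 of 85 (51.8%), and in mock 64 of 156 (41.0%) and 13 of 90 (14.4%). Over all protein-coding genes the shares with and without H3K4me3 were 84.0% and 22.1% with V. cholerae MVs, 97.2% and 42.8% with E. coli MVs, and 53.5% and 23.8% in mock. Across members with both peaks, which share a library pair in each case, the log2 levels of the 2 assays had Pearson r = 0.48 with V. cholerae MVs (n = 133), 0.53 with E. coli MVs (n = 160) and 0.01 in mock (n = 64). The mock FAIRE values of members were low, with a median of 11.7 (17 tags) and quartiles of 8.98 and 16.6. The part of this low range in the mock correlation was not tested. Of the 85 unmarked members 29 had no FAIRE peak in any library and 27 had one with E. coli MVs alone. FAIRE peaks at members were short. At 1000 bp into the gene 16.7% of members and 44.4% of other chromosome 19 genes lay under a FAIRE peak with E. coli MVs, although 69.9% and 67.8% did at the start itself.

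**Figure D4:**
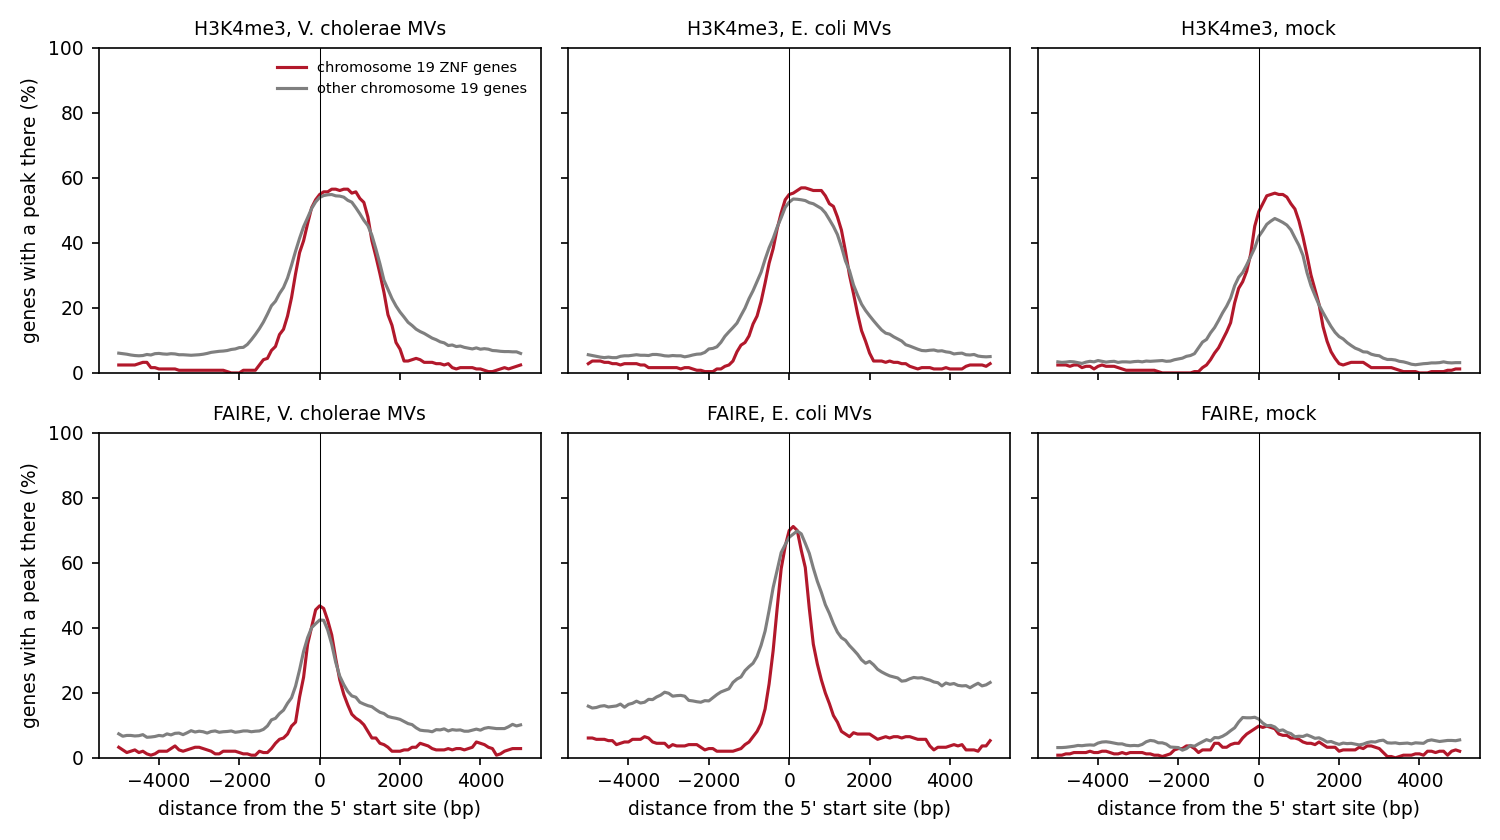
Percentage of members and of other chromosome 19 genes with a called peak over each position within 5000 bp of the 5′ start site, by assay (rows) and library (columns). With E. coli MVs FAIRE peaks cover 69.9% of members at the start and 16.7% at 1000 bp into the gene, and H3K4me3 peaks in each library lie mainly on the side of the gene body.

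Single members varied around the library medians. Only 27 members had FAIRE peaks in all 3 libraries with at least 20 mock tags. The highest ratios over mock among them were those of ZNF574 (93.6 with V. cholerae MVs, 300.4 with E. coli MVs and 16.6 in mock, log2 2.50 and 4.18), ZNF414 (61.3 with V. cholerae MVs, 225.6 with E. coli MVs and 13.8 in mock) and ZNF444 (81.1 with V. cholerae MVs, 287.8 with E. coli MVs and 22.1 in mock). The lowest were those of ZNF841 (9.11 with V. cholerae MVs, 33.0 with E. coli MVs and 17.3 in mock), ZNF649 (20.7 with V. cholerae MVs, 17.7 with E. coli MVs and 33.9 in mock), ZNF529 (11.6 with V. cholerae MVs, 54.5 with E. coli MVs and 13.8 in mock) and ZNF254 (26.5 with V. cholerae MVs, 49.4 with E. coli MVs and 18.7 in mock). ZNF649 was the one member with a FAIRE interval below 0 against mock, at -0.94 (-1.90 to -0.05) with E. coli MVs, which turned to 0.49 per 1000 bp of peak. Its mock peak was 1342 bp wide against 500 bp with either MV. Between the vesicles, among the same 27, ZNF649 (0.23) and ZNF878 (44.7 with V. cholerae MVs, 58.3 with E. coli MVs and 14.5 in mock, -0.38) were highest and ZNF529 (-2.23) and ZNF57 (59.6 with V. cholerae MVs, 258.6 with E. coli MVs and 32.5 in mock, -2.12) lowest.

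Of 169 members with no FAIRE peak in mock, 81 (47.93%) had one with both MVs. This share stands beside 294 of 614 other chromosome 19 genes (47.88%) and 5152 of 11703 genes over all (44.02%). Among the 81 members, 3 had the most tags. They were ZNF837 (112.6 with V. cholerae MVs and 251.0 with E. coli MVs), ZNF653 (51.3 with V. cholerae MVs and 294.1 with E. coli MVs) and ZNF8 (81.1 with V. cholerae MVs and 213.0 with E. coli MVs). The reverse, a mock peak and none with either MV, was seen at ZNF155, ZNF415 and ZNF525, with 12, 12 and 11 tags and no H3K4me3 peak. These are 3.90% of the 77 members with a mock FAIRE peak, beside 3.15% over all genes. ZNF160 had 45.5 with V. cholerae MVs, 180.0 with E. coli MVs and 11.7 in mock, ZNF473 had 67.1 with V. cholerae MVs, 247.2 with E. coli MVs and 11.1 in mock, and ZNF224 had 33.9 with V. cholerae MVs, 49.4 with E. coli MVs and 8.29 in mock. ZNF274, close to unmarked by H3K4me3, had FAIRE values of 10.8 with V. cholerae MVs, 93.8 with E. coli MVs and 8.29 in mock. ZNF132 had a FAIRE peak with V. cholerae MVs (23.2) and E. coli MVs (20.3), ZNF331 with E. coli MVs (43.1), ZNF382 and ZNF471 with V. cholerae MVs (11.6 and 9.11), and ZNF154 in none.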

How the data were processed

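H3K4me3 ChIP sequencing and FAIRE sequencing of HCT8 cells gave 6 libraries, 1 for each assay and treatment; the labels list 8 samples, and the 2 inputs were not analysed here. Reads were aligned to hg19 and peaks were called by the authors in each library on its own against an input. Tools named in the submitters' processing notes are HOMER 4.7.2, Bowtie 1.1.2 and SAMtools 1.3.1, whereas the study's methods name Bowtie 2 together with MACS and HOMER. Per the file headers, peaks had to reach a ratio of 4-fold over input at a Poisson p of 1.0e-04. The deposited signal is the normalized tag count, tags of a peak per 10000000 tags, made by the authors' peak caller. Tag counts of peaks were recovered from it and the total tags of the library. They were rounded to whole numbers, from which they lay at most 0.0721 away. A tag is an aligned read, and duplicates cannot be told from separate molecules.

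Start sites came from GENCODE release 44 mapped to GRCh37, the build of the files. Peaks within 1000 bp of any start site of a gene were summed, so a broad peak can count for several genes. Genes on chromosomes 1 to 22 and X were scored. Ratios were computed for genes with a peak in all 3 libraries of an assay, and a call means at least 1.5-fold, with no test. Ratios have exact binomial 95% counting intervals from whole tags, shares have exact binomial intervals, and medians have intervals from ranked genes. The intervals of ratios and of medians were tried on simulated data that meet their own assumptions. Intervals of shares, shared peaks and variation between replicate libraries were not simulated. KRAB and finger patterns came from translated GENCODE coding sequences in place of RefSeq proteins as first planned, and promoter sequences from the RefSeq table (GRCh38.p14), 216 of 246 members matched. Python 3.11.15, numpy 2.4.6, pandas 2.3.3, scipy 1.17.1 and matplotlib 3.10.9 were used.

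The members, gene lists and tests were chosen with earlier results of these data known. Named members are those of known role, the 5 highest and 3 lowest by mock H3K4me3, the 3 with the most tags among those gaining or losing a peak with both MVs, and, in each assay, among members with at least 20 mock tags and a peak in all 3 libraries, the 3 highest and 3 lowest ratios over mock and the 2 highest and 2 lowest between the vesicles. ZNF43, ZNF112, ZNF135, ZNF222, ZNF570, ZNF606, the ends of runs and the members shown for the CCGGAAG core were chosen after their values were seen. Alternatives were other windows around start sites (500 and 2000 bp), the 5′ end alone, stricter peaks (8-fold over input), peaks of 1 gene only, peaks that overlap between libraries, scaling to tags in peaks, values per 1000 bp of peak, a minimum of 20 tags, and comparison genes weighted by G+C.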

Additional observations from a re-analysis of the deposited data

How the results depend on the processing

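No paired analysis was possible because an assay had 1 library for a treatment, and no library could be left out. Of 114 alternative values for the 12 member results, 72 stayed within their error, 35 moved and 7 turned direction. Error here is the interval of the member value alone. The 72 include the differences scaled to tags in peaks, which could not change because every gene moves alike. Of 332 values for single genes the numbers were 254, 65 and 13. The cause of each shift was not tested. In what follows the order is V. cholerae MVs over mock, E. coli MVs over mock, and V. cholerae over E. coli MVs.

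For H3K4me3 the difference to the other chromosome 19 genes was -0.449 and -0.281 over mock with peaks of 1 gene only, -0.142, -0.114 and -0.059 per 1000 bp of called peak, and -0.017, -0.047 and -0.020 with the other genes weighted by G+C. In G+C bins with at least 20 other genes it was -0.038, -0.044 and 0.010, the last turned. For FAIRE the difference was 0.115, 0.341 and -0.144 per 1000 bp, all turned, and 0.215, 0.136 and 0.081 with G+C weighting, the first and second turned. In bins with at least 20 other genes it was 0.096 (turned), -0.132 and 0.193. Peaks at least 8-fold over input gave -0.527, -3.321 and 1.124 from 1 member, a minimum of 20 tags gave -0.495 and -1.073 over mock, and overlapping peaks gave -0.163 for E. coli MVs over mock and 0.317 between the vesicles.

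The share of members with H3K4me3, in the order V. cholerae MVs, E. coli MVs and mock, was 58.130%, 58.130% and 55.691% with the 5′ end alone and 51.220%, 51.220% and 49.187% with peaks of 1 gene only. For FAIRE, 8-fold peaks gave 11.789%, 50.813% and 2.033%, and peaks of 1 gene only gave 51.220% and 67.480% with the MVs. The 5′ end alone gave 75.203% with E. coli MVs and 22.764% in mock, and windows of 500 and 2000 bp gave 24.797% and 37.805% in mock.

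Scaling FAIRE to tags in peaks turned ZNF57 with V. cholerae MVs over mock (-0.092), ZNF878 (-0.383), ZNF254 (-0.989), ZNF529 (-0.409) and ZNF841 (-1.459) with E. coli MVs over mock, and ZNF254 (0.526), ZNF8 (0.031) and ZNF837 (0.268) between the vesicles. Per 1000 bp of peak, FAIRE turned for ZNF878 (-0.108), ZNF649 (0.713) and ZNF841 (0.404) with V. cholerae MVs and for ZNF649 with E. coli MVs (0.487), and H3K4me3 turned for ZNF77 with E. coli MVs (-0.085), all over mock. The G+C bins with at least 20 other genes, the windows at least 90% unique and the removal of 21 other zinc finger and read-through genes from the comparison were chosen after seeing the data. The shallow mock H3K4me3 library limits what can be called absent there, since its smallest member peak held 6 tags at 17.3 normalized, above several values seen with MVs.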

Other observations

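The partners of KRAB zinc finger proteins carried H3K4me3 at all 19 genes of the list in each library. Scaled to all tags, 11 of the 19 (57.9%) were at least 1.5-fold higher with V. cholerae MVs and 10 (52.6%) with E. coli MVs than in mock. The shares over all genes were 53.5% and 42.6%. With V. cholerae MVs 1 was that much lower, beside 0.572% of all genes. Scaled to tags in peaks, with V. cholerae MVs 4 stood higher and 3 lower, beside 21.7% and 7.10% of all genes. With E. coli MVs it was 2 and 2, beside 12.2% and 1.92%. TRIM28, the protein that KRAB boxes bind, had 624.0 with V. cholerae MVs, 547.1 with E. coli MVs and 320.5 in mock. SETDB1, which writes H3K9me3, had 398.9 with V. cholerae MVs, 414.1 with E. coli MVs and 389.7 in mock, while ATF7IP, which keeps SETDB1 in the nucleus, had 210.6 with V. cholerae MVs, 281.2 with E. coli MVs and 343.5 in mock. DNMT3A, a DNA methyltransferase, had 207.5 with V. cholerae MVs, 169.1 with E. coli MVs and 31.8 in mock, and CHD3 of the NuRD complex had 499.5 with V. cholerae MVs, 465.4 with E. coli MVs and 158.8 in mock. HDAC1, a histone deacetylase, was the 1 gene of the list at least 1.5-fold apart between the vesicles, with 952.2 for V. cholerae MVs, 395.1 for E. coli MVs and 285.8 for mock.

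Of 19 chromosome 19 zinc finger genes with other kinds of name, 18 were found by symbol and 7 had an H3K4me3 peak in all 3 libraries. ZBTB7A, a BTB-domain repressor, had 1301.1 with V. cholerae MVs, 900.4 with E. coli MVs and 277.2 in mock. ZIK1 had 381.2 with V. cholerae MVs, 331.5 with E. coli MVs and 187.7 in mock, and MZF1 had 657.9 with V. cholerae MVs, 616.4 with E. coli MVs and 404.2 in mock. The imprinted genes PEG3 and ZIM2 had no H3K4me3 peak in any library, and neither had ZFP28, ZFP30, ZFP82, ZIM3, ZSCAN1, ZSCAN4, ZSCAN5B, ZSCAN18 and ZBTB32. With E. coli MVs a FAIRE peak stood at ZSCAN18 (148.3), ZBTB32 (86.2), PEG3 (30.4) and ZFP82 (26.6).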
